A study of Mus musculus with 22 samples.

Results

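The 47 genes described here encode the machinery of synaptic vesicle release, and they were taken by their symbols from a table of 37786 genes. Each symbol was found on 1 row. By role they comprise 12 active zone and priming genes (Rab3a, Rab3c, Rims1, Rims2, Rims3, Bsn, Pclo, Unc13a, Unc13b, Unc13c, Erc1 and Erc2). With them are 3 complexins (Cplx1, Cplx2 and Cplx3) and 7 SNAREs and SNARE recycling genes (Snap25, Snap47, Stx1a, Vamp1, Vamp2, Nsf and Napb). Another 12 are synaptotagmins (10, Syt1 to Syt7 and Syt11 to Syt13) and the Doc2 genes (Doc2a and Doc2b). The vesicle membrane and its surface have 10 genes (Syn1, Syn2, Syn3, Syp, Synpr, Syngr1, Syngr3, Sv2a, Sv2b and Sv2c). The last 3 are genes of vesicle retrieval (Amph, Dnm1 and Synj1).

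RNA was sequenced from bulk anterior cingulate cortex (ACC), dissected from both hemispheres of 22 adult male C57BL/6J mice labelled as wildtype, 2 days after the last session. Both groups had received AAV5-CaMKIIa-ChR2(H134R)-EYFP, a virus that places a light-gated cation channel in CaMKIIa-expressing neurons, in the basolateral amygdala (BLA) of both sides, and both carried an optic fibre over the ACC of 1 side. The 10 stimulated mice received light on the BLA terminals in the ACC over 9 sessions, and in the 12 controls the light stayed off. The cell bodies of the BLA neurons lie outside the tissue that was sequenced, and the tissue of both sides was pooled for each mouse although light was given to 1 side. The labels number the libraries from 1 to 23 without a number 7, in a first run of numbers 1 to 11 (6 controls and 4 stimulated mice) and a second run of numbers 12 to 23 (6 and 6). The study used 2 batches of mice, and the labels do not say whether these are the 2 runs.

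At a presynaptic terminal, vesicles filled with transmitter dock at the active zone, a protein scaffold built from RIM, Munc13, Bassoon, Piccolo and ELKS. Docked vesicles are primed when the SNARE proteins of the vesicle (VAMP) and of the plasma membrane (syntaxin and SNAP-25) begin to zip together, are held there by complexin, and fuse when calcium binds synaptotagmin. NSF and its SNAP partners then take the SNAREs apart, dynamin, amphiphysin and synaptojanin retrieve the membrane, and synapsins tether the recycled vesicles in a reserve cluster.

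The main comparison asked whether repeated activation of the BLA-ACC pathway was accompanied by a different RNA level of these genes in the target tissue. Total counts per mouse were between 24563116 and 36542883 in controls and between 23090483 and 43668462 in stimulated mice, and all 47 members passed the minimum of 10 counts in at least 10 mice that left 17524 genes for testing. The cortical glutamatergic marker Slc17a7 was at 1060 to 2918 CPM (counts scaled to a common library total) in every mouse, and all 10 markers of cortical glutamatergic neurons passed the minimum. Controls 9 and 11, both of the second run, stood apart in 12 oligodendrocyte markers. Their summed level was 20490 and 14710 CPM, against 3354 to 6384 CPM in the other 10 controls and 2395 to 5966 CPM in stimulated mice. For 6 markers of oligodendrocyte progenitors it was 511 and 507 CPM in these 2, against 203 to 381 CPM in the other mice. Controls 1 and 2, of the first run, had the largest shares of mitochondrial counts (4.41% and 4.81%, against 0.982% to 3.04% in the other mice), and control 2 had the smallest share of counts on the members. Values are given below with and without controls 9 and 11 where a result rests on them.

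Promoter sequences are shown for 4 members. Vamp1 and Syt2 had the largest fitted deficit in stimulated mice and were high in the same 2 controls, Syn2 was the 1 member below an unadjusted p of 0.05 in the main comparison, and Syn1 is the only member whose window holds a cyclic AMP response element. They are bases before the RefSeq start (GRCm38.p6), without any base that lies inside the GENCODE M21 transcript, read 5′ to 3′ on the strand of the gene, with motif matches in capitals. The capitals in the first 3 mark the GC box GGGCGG on either strand, and those in Syn1 mark TTCAGCACC, the left part of the repressor element 1, followed by the cyclic AMP response element TGACGTCA. The Vamp1 window is chr6:125215331-125215550, the Syt2 window chr1:134646362-134646611 and the Syn2 window chr6:115134652-115134901, all on the plus strand, and the Syn1 window is chrX:20921005-20921168 on the minus strand.
Vamp1: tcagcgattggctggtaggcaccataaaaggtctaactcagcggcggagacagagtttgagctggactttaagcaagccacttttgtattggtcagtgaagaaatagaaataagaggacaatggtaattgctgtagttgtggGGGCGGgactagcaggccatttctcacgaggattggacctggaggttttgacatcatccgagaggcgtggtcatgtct
Syt2: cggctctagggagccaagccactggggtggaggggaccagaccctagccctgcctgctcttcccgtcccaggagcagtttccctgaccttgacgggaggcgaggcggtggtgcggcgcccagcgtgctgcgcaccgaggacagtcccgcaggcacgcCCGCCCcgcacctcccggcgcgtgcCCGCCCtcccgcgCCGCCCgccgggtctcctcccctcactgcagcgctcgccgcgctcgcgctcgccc
Syn2: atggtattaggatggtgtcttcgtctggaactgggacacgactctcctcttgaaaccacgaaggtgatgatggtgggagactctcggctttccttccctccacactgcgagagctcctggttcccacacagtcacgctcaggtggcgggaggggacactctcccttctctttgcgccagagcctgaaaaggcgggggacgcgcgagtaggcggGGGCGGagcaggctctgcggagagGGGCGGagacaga
Syn1: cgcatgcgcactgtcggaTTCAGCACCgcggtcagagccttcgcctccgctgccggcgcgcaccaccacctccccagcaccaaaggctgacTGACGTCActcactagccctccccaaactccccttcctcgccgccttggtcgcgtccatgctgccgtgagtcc

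The Syt2 window had 76% G and C and 30 CpG dinucleotides, the Syn1 window 67.1% and 16, the Syn2 window 61.2% and 16, and the Vamp1 window 48.6% and 7. Over all 32851 RefSeq windows of 250 bases the medians were 52.4% and 6. RefSeq windows were matched for 35 of the 47 members, in 46 windows, and each motif was searched on both strands of the 250 bases before the start. The GC box was found in 27 of these 46 windows (58.7%), from 24 members, and in 32.7% of all windows. The cyclic AMP response element was in 1 member window (2.17%) and in 1.55% of all windows, TTCAGCACC was in 1 (2.17%) and in 0.301%, and GGACAGC, the right part of the repressor element 1, was in 3 windows (6.52%) of 1 member, Syt6, and in 5.28%.

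The members covered a 1640-fold range of levels per length. Levels between genes are given as RPKM, that is CPM per kilobase of annotated exon (mean ± SD, n = 22 mice). Snap25, the plasma membrane SNARE that supplies 2 of the helices of the fusion complex, was the highest at 681 ± 126 RPKM, and its partner on the vesicle, Vamp2, followed at 305 ± 23.4. In the other roles the highest members were the vesicle GTPase Rab3a (282 ± 85.5), the fusion clamp Cplx1 (263 ± 43.3), the membrane-severing GTPase Dnm1 (243 ± 87.9), the vesicle tether Syn1 (221 ± 66.4) and Syt1, the fast calcium sensor (193 ± 46.6). The leaders of these last 2 roles were not the same in each setting, since in the first run Syngr3 (241 RPKM) was above Syn1 (167) and Syt5 (189) and Syt11 (181) were above Syt1 (156), and with the longest transcript as length Syp (284) was above Syn1 (224). At the other end were the vesicle tether Syn3 (1.28 ± 0.464), the glycoprotein Sv2c (0.996 ± 0.368) and the high-affinity calcium sensor Doc2b (0.415 ± 0.134), the last with 27 to 142 counts in a library.

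**Figure D1:**
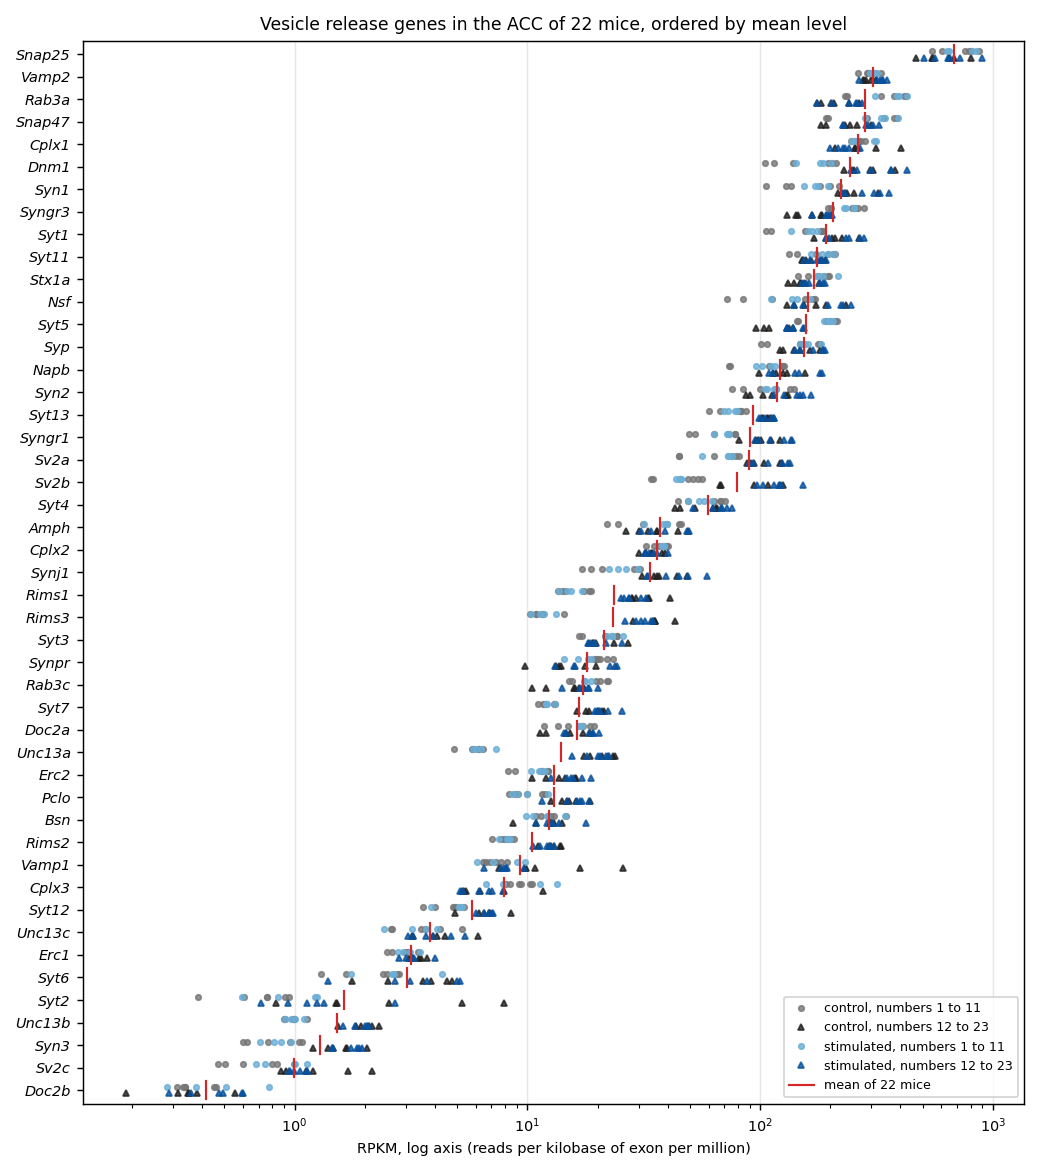
Level of each of the 47 members in each of the 22 mice (x axis, RPKM on a log scale; 1 row per gene, ordered by the mean, which is the red line). Snap25 is the highest at a mean of 681 RPKM and Doc2b the lowest at 0.415, and for Unc13a and Rims3 the circles (library numbers 1 to 11) lie apart from the triangles (12 to 23).

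Most neighbours in this order did not differ beyond their spread. Of the 46 neighbouring pairs, 3 were in the same order in every mouse, namely Snap25 above Vamp2, Syt4 above Amph, and Sv2c above Doc2b, and in 11 pairs the gene with the higher mean was above the other in at most 11 of the 22 mice. Within families the levels differed widely. Among the Munc13 priming factors, Unc13a was at 13.9 ± 7.53 RPKM, Unc13c at 3.83 ± 0.937 and Unc13b at 1.52 ± 0.519, and among the synapsins Syn1 and Syn2 (118 ± 23.7) were both far above Syn3. Vamp1, the second vesicle SNARE, was at 9.26 ± 4.30 RPKM, and Syt2, a fast calcium sensor like Syt1, was at 1.63 ± 1.75.

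The spread of a member over mice, as the coefficient of variation of its CPM, ran from 7.67% for Vamp2 to 107% for Syt2, with a median of 23.5% (28.4% over all genes tested). Within the first run the median was 14.9% and within the second 16.4%, against 17.1% and 17.2% over all genes tested. After Syt2, the most variable members were Unc13a (54.3%), Rims3 (49%), Vamp1 (46.4%) and Sv2b (45.8%). For Unc13a the coefficient was 10.1% within the first run and 12.3% within the second. Beside Vamp2, the least variable were Cplx2 (8.57%) and the scaffold gene Erc1 (10.7%).

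Together the members took 1.57% to 2.71% of all counts in controls (median 2.24%) and 1.90% to 2.90% in stimulated mice (median 2.26%), and the groups overlapped over most of this range. In bulk tissue a smaller number of cells of a type and less RNA per cell cannot be told apart, so these are levels in the tissue and not in a terminal or a neuron.

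No member differed past the threshold between the 2 groups. In edgeR's quasi-likelihood test with group as the only term, 0 of 47 members and 0 of 17524 genes (0%) had an adjusted p below 0.05. The difference between the runs, given below, stayed in the spread of this fit. Below an unadjusted p of 0.05 was 1 member of 47, against 632 genes (3.61%), with 175 (0.999%) on the higher and 457 (2.61%) on the lower side after stimulation. The DESeq2 Wald test gave 3 genes past an adjusted p of 0.05 and limma voom with sample quality weights 0, none of them members. The fitted level was higher in stimulated mice for 40 members and lower for 7, and with the run in the fit for 35 and 12. The groups were not balanced over the runs (6 and 6 controls, 4 and 6 stimulated mice). Of the members called between the runs, 25 were higher in the second and 7 lower. With group alone, the median log2 fold change of the members was 0.10 (0.01 over all genes tested, 52.5% of which were higher). Of the 10 glutamatergic cortical markers 9 had a higher fitted level in stimulated mice (median 0.12 on the log2 scale), of 12 general neuron markers 7, and of 9 astrocyte markers 0 (median -0.11), with 0 of each list below an unadjusted p of 0.05. Whether the share of cell types in the tissue has a part in the members' direction was not tested. The groups overlapped for each of the 47 members, and only 1 of all genes (0.00571%) had groups that did not overlap.

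**Figure D2:**
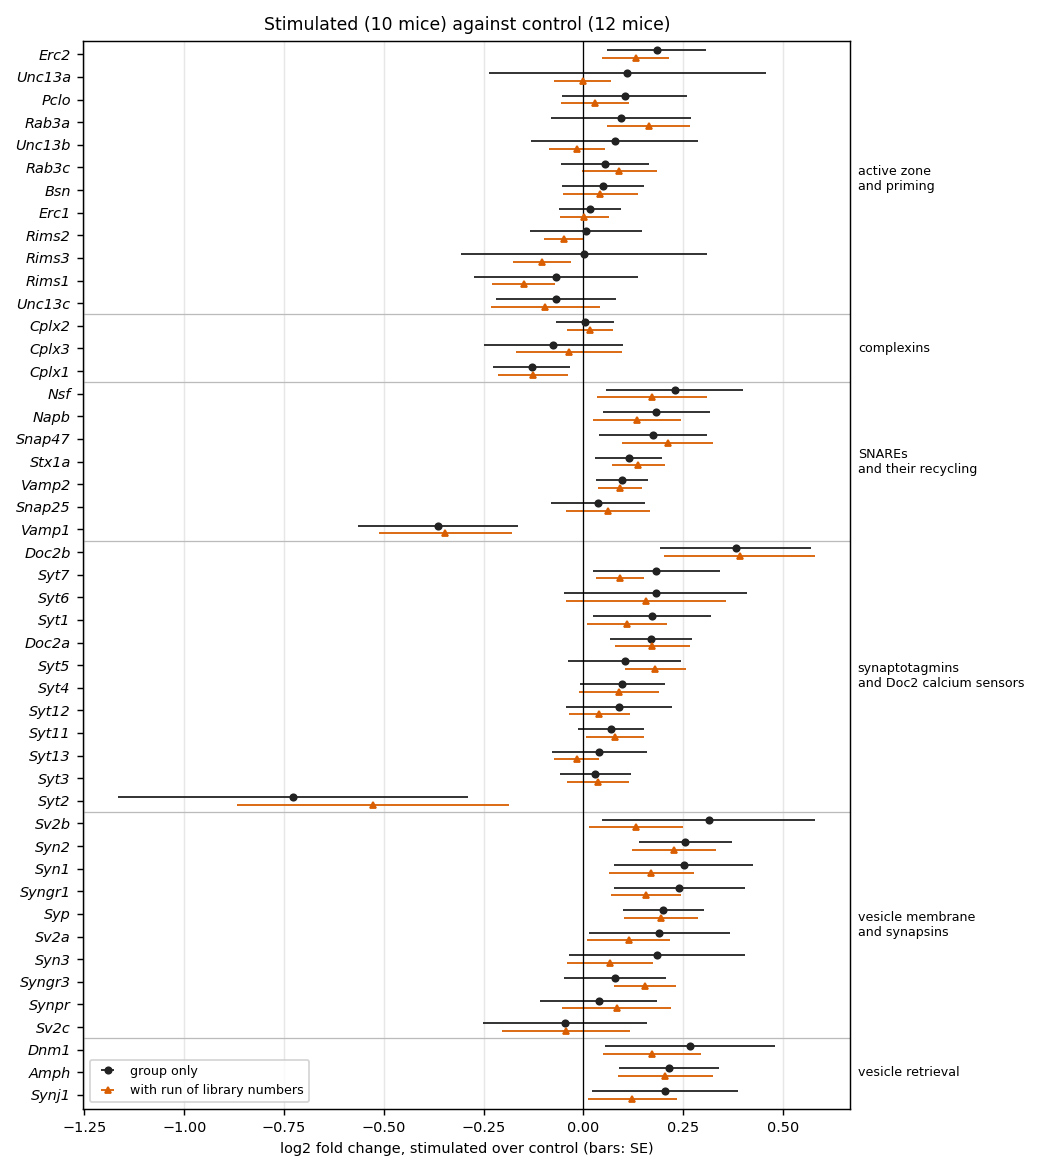
Fitted log2 fold change of each member, stimulated over control (x axis, bars are SE), by role and with group as the only term (black circles) or with group and run of library numbers (orange triangles). Most points lie to the right of 0 by less than 0.4, while Vamp1 and Syt2 lie furthest to the left, Syt2 with the widest bars.

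When the run of library numbers was added as a covariate, 6 members were below an unadjusted p of 0.05, 5 of them higher and 1 lower, against 2015 genes (11.5%), of which 1060 (6.05%) were higher and 955 (5.45%) lower. The 6 were Stx1a, Syt5, Syn2, Syp and Doc2b on the higher side and Vamp1 on the lower side, and 0 passed an adjusted p of 0.05. Without controls 9 and 11, 0 members were below an unadjusted p of 0.05, with group alone (462 genes, 2.64%) or with the run (1430 genes, 8.16%). The fitted level was then higher for 40 members with group alone and for 31 with the run. Whether the state of these 2 libraries has a part in the differences was not tested.

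The direction of the active zone and priming genes depended on the fit. Of the 12, 10 had a higher and 2 a lower fitted level with group alone, 6 and 6 with the run, and 2 and 10 with the run and without controls 9 and 11, where the median log2 fold change was -0.011. In each of these fits 0 were below an unadjusted p of 0.05. Rab3a, which recruits RIM to the vesicle, ranged from 390 to 937 CPM in controls (median 531) and from 392 to 952 CPM in stimulated mice (median 595). The 2 ranges were nearly the same, and the log2 fold change was 0.09 ± 0.175 (SE). Unc13a, the main cortical Munc13, was at 61.4 to 300 CPM in controls (median 151) and 73.7 to 284 CPM in stimulated mice (median 212), with a log2 fold change of 0.11 ± 0.347. For Rims3, a short RIM without the Rab3-binding part, the log2 fold change was 0.0013 ± 0.307, and with the run in the fit Unc13a was at -0.0019 ± 0.0707 and Rims3 at -0.10 ± 0.0726.

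Of the 3 complexins, which clamp and then promote fusion, 1 had a higher and 2 a lower fitted level with group alone, and 2 a higher and 1 a lower one with the run and without controls 9 and 11. Cplx1 was at 457 to 877 CPM in controls (median 576) and 437 to 689 CPM in stimulated mice (median 536). Its highest value was in control 9, and the log2 fold change of -0.13 ± 0.0965 (unadjusted p = 0.194, edgeR) became -0.04 ± 0.0874 without controls 9 and 11. Cplx3, a complexin of ribbon synapses that cortex has at a low level, ranged from 15.4 to 34.5 CPM in controls and from 15.1 to 39.7 CPM in stimulated mice, and the fold change was -0.08 ± 0.174 on the log2 scale.

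Of the 7 SNAREs and SNARE recycling genes, 6 had a higher fitted level in stimulated mice and 1, Vamp1, a lower one. Snap25 was at 3163 to 5929 CPM in controls (median 4495) and 3428 to 6063 CPM in stimulated mice (median 4422). The medians differed little, and the log2 fold change was 0.04 ± 0.118. Stx1a, the syntaxin that forms the fusion complex with SNAP-25 and VAMP, was at 351 to 528 CPM in controls (median 421) and 402 to 577 CPM in stimulated mice (median 476). The 2 lowest values were those of controls 9 and 11. The log2 fold change was 0.11 ± 0.0850 with group alone and 0.14 ± 0.0665 with the run (edgeR unadjusted p = 0.197 and p = 0.0488), and it was 0.10 ± 0.0682 with the run and without controls 9 and 11.

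Vamp1 ranged from 65.9 to 261 CPM in controls (median 80.5) and from 61.6 to 99.5 CPM in stimulated mice (median 81.8). The medians were alike, and the 2 highest controls were control 9 (261 CPM) and control 11 (171 CPM), while the other 10 controls reached 109 CPM. The log2 fold change was -0.36 ± 0.200 (edgeR unadjusted p = 0.0804) with group alone and -0.35 ± 0.166 (p = 0.0480) with the run, and it was -0.03 ± 0.108 and -0.05 ± 0.0906 without these 2 mice.

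Among the synaptotagmins and Doc2 genes, 11 of 12 had a higher fitted level in stimulated mice, and Syt2 had a lower one. Syt1 was at 883 to 2215 CPM in controls (median 1535) and 1132 to 2332 CPM in stimulated mice (median 1623), with a log2 fold change of 0.17 ± 0.147. Syt5, a sensor of synaptic and dense-core vesicles, was at 229 to 509 CPM in controls (median 336) and 310 to 489 CPM in stimulated mice (median 365). Stimulated mice lay inside the range of controls, whose 2 lowest values were those of controls 11 and 9, and the log2 fold change was 0.10 ± 0.142 with group alone. With the run it was 0.18 ± 0.0765 (edgeR unadjusted p = 0.0265, adjusted p = 0.383), the smallest p of any member in that fit, and 0.12 ± 0.0734 when controls 9 and 11 were also left out. Doc2b was at 0.826 to 2.41 CPM in controls (median 1.5) and 1.24 to 3.40 CPM in stimulated mice (median 2.12). This gave the largest positive fold change of the members, 0.38 ± 0.189 on the log2 scale (unadjusted p = 0.0548, edgeR), at the lowest level of all.

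Syt2 ranged from 2.94 to 60.5 CPM in controls (median 7.10) and from 4.52 to 20.6 CPM in stimulated mice (median 9.00). The median was thus higher in stimulated mice, while the fitted log2 fold change was -0.73 ± 0.438 (unadjusted p = 0.110, edgeR). Controls 9 and 11, at 60.5 and 39.9 CPM, lay above each of the other 20 mice, which reached 20.6 CPM. Without them the fold change was 0.15 ± 0.287 on the log2 scale, on the other side of 0.

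In the cortex, Vamp1 and Syt2 are known from fast-spiking parvalbumin neurons. Parvalbumin itself (Pvalb) was at 62.3 CPM in control 9 and 57.0 CPM in control 11, against 11.6 to 53.8 CPM in the other 20 mice, and Scn4b, a sodium channel subunit, was at 179 and 97.9 CPM against 17.7 to 64.9 CPM. Other interneuron markers were mixed. Vip was lowest of all mice in these 2 (71.4 and 83.1 CPM). Sst, at 174 and 172 CPM, was near its median of 177 CPM in the second run. Gad1, a marker of GABAergic neurons as a whole, was highest of all mice in control 9 (425 CPM). In control 11 it was at 293 CPM, beside a median of 304 CPM in the second run. Over the whole list of 10 GABAergic markers the summed level was 1132 and 971 CPM in controls 9 and 11, 771 to 1270 CPM over all controls and 847 to 1419 CPM in stimulated mice. Of these markers 8 had a higher and 2 a lower fitted level in stimulated mice, and 0 were below an unadjusted p of 0.05. All 12 oligodendrocyte markers had a lower fitted level in stimulated mice and were below an unadjusted p of 0.05, with 0 past an adjusted p of 0.05. Without controls 9 and 11, 0 of the 12 were below an unadjusted p of 0.05 and their median went from -0.73 to -0.16 on the log2 scale. In the second run without these 2 mice 6 were below that p, and in the first run 6 had a higher and 6 a lower level. Myelin basic protein (Mbp) was at 9902 and 7477 CPM in controls 9 and 11 and at 1108 to 3622 CPM in the other mice. Some markers of the thalamus were also high in control 9, and less so in control 11. Slc17a6, a vesicular glutamate transporter known from thalamic neurons, was at 50.5 CPM in control 9 and 26.7 CPM in control 11 against 9.33 to 26.1 CPM in the other 20 mice, and Rora was at 127 and 118 CPM against 69.0 to 106 CPM, while Tcf7l2 (7.34 and 7.56 CPM) lay within the 4.25 to 9.35 CPM of the others. Summed over 6 thalamus markers the level was 225 CPM in control 9, 190 CPM in control 11, 136 to 171 CPM in the other controls and 128 to 191 CPM in stimulated mice. Of the 6, 4 had a lower fitted level in stimulated mice, 2 of them below an unadjusted p of 0.05 over all mice and 0 without controls 9 and 11, and in the second run 3 were lower below it. The part of any of these cells in the values of Vamp1 and Syt2 was not tested.

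The vesicle membrane and synapsin genes had the highest median of the larger roles, 0.20 on the log2 scale, with 9 of 10 members higher in stimulated mice. Syn2 was at 530 to 981 CPM in controls (median 755) and 734 to 1159 CPM in stimulated mice (median 856). Of the 12 controls, 6 lay below the lowest stimulated mouse and the other 6 within the range of stimulated mice. The lowest 2 values were in controls 2 and 1 (530 and 591 CPM), which had the largest shares of mitochondrial counts. The log2 fold change was 0.26 ± 0.116 (edgeR unadjusted p = 0.0376, adjusted p = 1) with group alone and 0.23 ± 0.105 (unadjusted p = 0.0404) with the run, and 0.14 ± 0.102 (unadjusted p = 0.171) with the run and without controls 9 and 11. When each mouse was left out in turn, p stayed under 0.05 in 12 of 22 fits and reached 0.0836. It was above 0.05 without control 1, 2, 3, 7, 9 or 11 or stimulated mouse 5, 6, 7 or 8. With group alone, without controls 9 and 11, the fold change was 0.20 ± 0.118 (edgeR unadjusted p = 0.104). The Syn2 gene (chr6:115134902-115282006, plus strand, GRCm38) holds Timp4 within it on the other strand, and the 2 share 90 exonic bases, 1.28% of those of Syn2. How reads on 2 strands were counted is not given in the sources used here.

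Syp (synaptophysin), an abundant protein of the vesicle membrane, was at 524 to 939 CPM in controls (median 771) and 735 to 989 CPM in stimulated mice (median 856). The lowest 2 values were in controls 1 and 2, and the log2 fold change was 0.20 ± 0.101 (edgeR unadjusted p = 0.0589) with group alone and 0.19 ± 0.0932 (p = 0.0479) with the run. Syn1 was at 350 to 1052 CPM in controls (median 716) and 507 to 1184 CPM in stimulated mice (median 752). Both medians lay well inside both ranges, and the log2 fold change was 0.25 ± 0.174. Synpr, a relative of Syp found in a part of cortical terminals, was at 91.9 to 220 CPM in controls (median 185) and 124 to 230 CPM in stimulated mice (median 164), with a log2 fold change of 0.04 ± 0.146 that covers a difference between the runs given below.

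All 3 vesicle retrieval genes had a higher fitted level in stimulated mice, by 0.20 (Synj1), 0.21 (Amph) and 0.27 (Dnm1) on the log2 scale, and 0 were below an unadjusted p of 0.05. Dnm1 was at 548 to 1995 CPM in controls (median 1151) and 749 to 2233 CPM in stimulated mice (median 1328), and its SE of 0.212 was close to the fold change itself.

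Other genes of the pathway gave a similar picture. Of 113 tested genes that are not members, 89 had a higher and 24 a lower fitted level in stimulated mice. Their median was 0.07 on the log2 scale, and 4 were below an unadjusted p of 0.05, 3 of them higher, a share close to the 3.61% over all genes. With the run in the fit 19 were below it, 13 of them higher, beside 11.5% of all genes, and 71 had a higher and 42 a lower level when controls 9 and 11 were left out as well. The 3 with the smallest p were Sypl, a relative of synaptophysin found outside neurons too (41.8 to 57.1 CPM in stimulated mice, 43.4 to 69.7 CPM in controls, log2 fold change -0.23 ± 0.0877), the calcium sensor Syt9 (0.41 ± 0.173) and Svop, a relative of the SV2 proteins (0.26 ± 0.118), each with an adjusted p of 1 in edgeR's test. The fourth, Ap2m1 of the clathrin adaptor (0.16 ± 0.0770), was named after its value was seen. Of the 16 subunits of the proton pump that acidifies vesicles, 13 had a higher fitted level with group alone, 10 without controls 9 and 11 and 16 with the run, where 6 were below an unadjusted p of 0.05. Of the 41 endocytosis and recycling genes 34 had a higher level with group alone and 30 with the run.

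**Figure D3:**
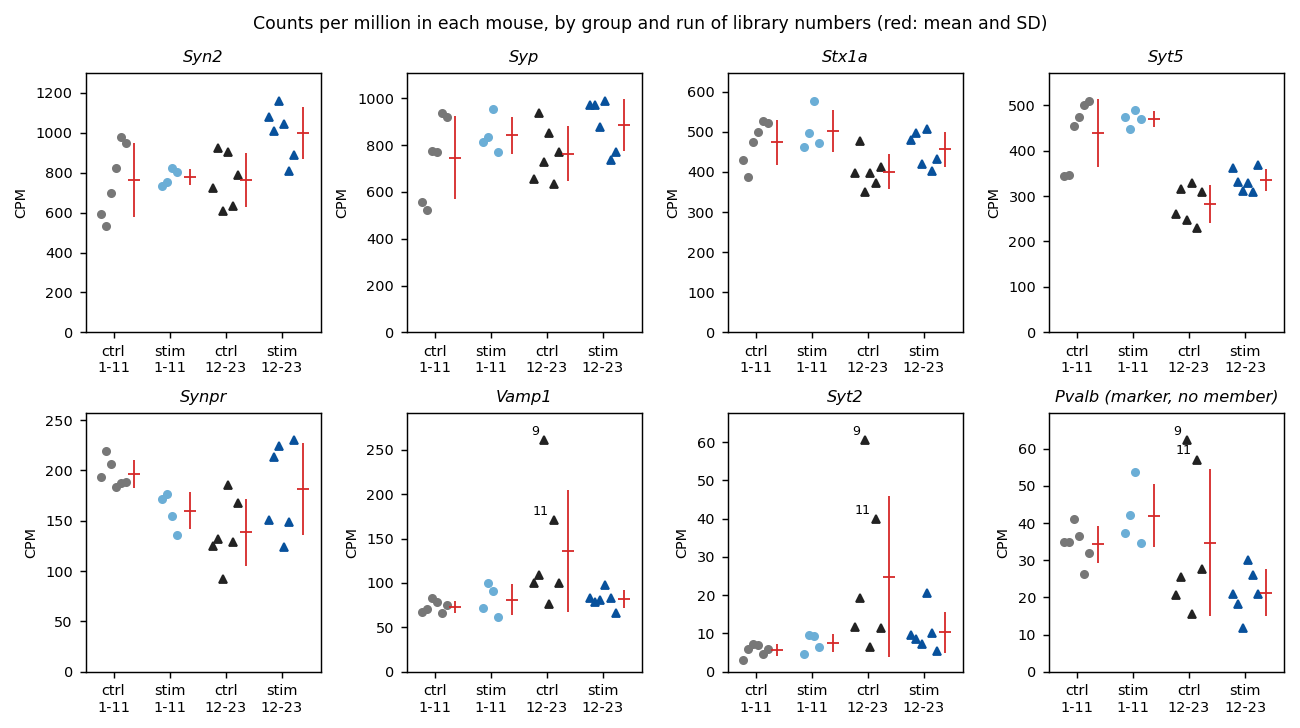
CPM in each mouse (y axis, from 0) for 7 members and for the marker Pvalb, in controls and stimulated mice of library numbers 1 to 11 and 12 to 23, with the mean and SD in red. Controls 9 and 11 are numbered in the panels of Vamp1, Syt2 and Pvalb, where they lie at the top, and the 4 stimulated mice of the first run lie below all 6 controls for Synpr.

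The group difference was then taken within each run. In the first run (6 controls and 4 stimulated mice), 1 member was below an unadjusted p of 0.05, against 974 genes (5.56%), and 31 members had a higher and 16 a lower fitted level. In the second run (6 and 6), 7 members were below it, against 2165 genes (12.4%), and again 31 were higher and 16 lower. None passed an adjusted p of 0.05 in edgeR's test in either run. The 7 were Syn2, Synpr, Syngr3 and Syt5 on the higher side and Vamp1, Syt2 and Cplx1 on the lower side. Without controls 9 and 11, 2 members remained below an unadjusted p of 0.05 in the second run, against 875 genes (4.99%), which is about the same share. They were Syn2 (0.25 ± 0.114, p = 0.0430) and Vamp1 (-0.25 ± 0.114, p = 0.0446).

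Synpr had opposite directions in the runs. In the first run the 4 stimulated mice were at 172, 177, 155 and 136 CPM and the 6 controls at 183 to 220 CPM (median 191). These groups did not overlap, and Synpr was the 1 member of 47 for which this was so with stimulated mice lower (86 of all genes, 0.491%), while 0 members had stimulated mice higher (160 genes, 0.913%). In the second run the stimulated mice were at 124 to 230 CPM (median 182) and the controls at 91.9 to 186 CPM (median 131), and the order of the groups was reversed, with overlap. In that run 0 members had groups that did not overlap, against 52 genes (0.297%) with stimulated mice higher and 44 (0.251%) with stimulated mice lower. The log2 fold change was -0.33 ± 0.0957 in the first run and 0.38 ± 0.176 in the second, where control 9 was the lowest mouse (91.9 CPM), and 0.25 ± 0.179 (edgeR unadjusted p = 0.186) in the second without controls 9 and 11.

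**Figure D4:**
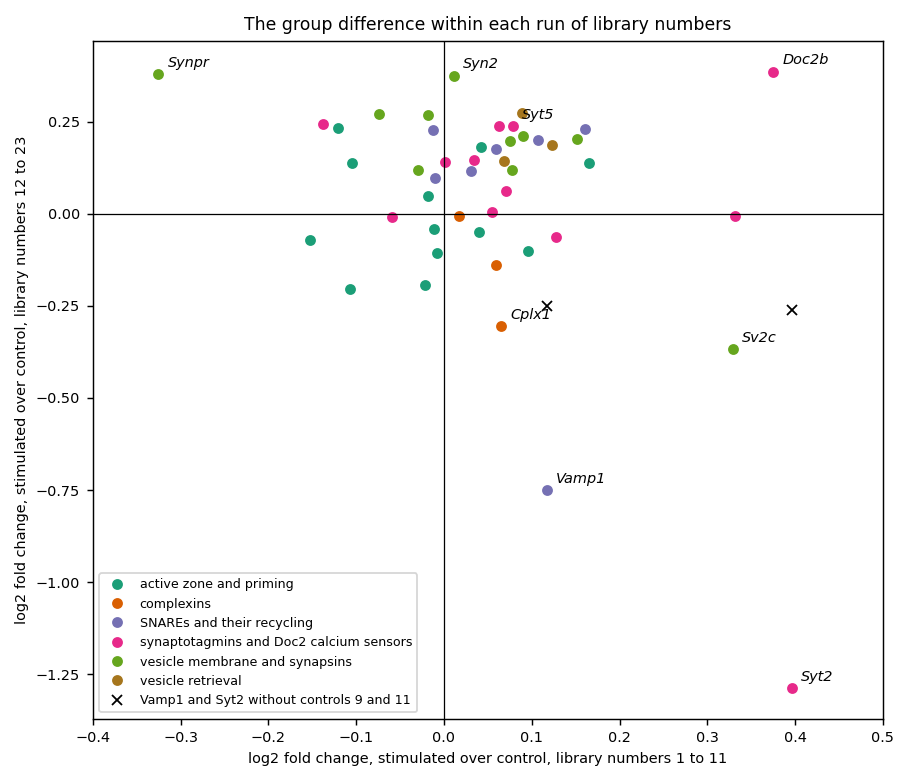
Log2 fold change of stimulated over control in library numbers 1 to 11 (x axis) and 12 to 23 (y axis) for each of the 47 members, coloured by role, with crosses for Vamp1 and Syt2 without controls 9 and 11. Synpr lies at the upper left (-0.33 and 0.38), and Syt2 lies at the lower right (0.40 and -1.29).

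The test of the difference itself, the interaction of group and run, called 0 members and 0 genes at an adjusted p of 0.05, and 7 members were below an unadjusted p of 0.05, against 1403 genes (8.01%). The 3 smallest p among members were those of Synpr (interaction of 0.75 ± 0.230 on the log2 scale, unadjusted p = 0.00327, adjusted p = 0.545, edgeR), Vamp1 (-0.82 ± 0.297, p = 0.0106) and Syt2 (-1.64 ± 0.603, p = 0.0120). Without controls 9 and 11 these were 0.60 ± 0.216 (unadjusted p = 0.0114), -0.34 ± 0.172 (p = 0.0604) and -0.63 ± 0.454 (p = 0.179). Vamp1 went from 0.12 ± 0.119 in the first run to -0.75 ± 0.229 in the second, and Syt2 from 0.40 ± 0.252 to -1.29 ± 0.457.

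The runs of library numbers differed far more than the groups did, over the members as over all genes. With group in the fit, 32 of the 47 members were called between the runs at an adjusted p of 0.05, the same share as over all genes (11927 genes, 68.1%), 25 of them higher in the second run (5909 genes, 33.7%) and 7 lower (6018 genes, 34.3%). The median over the members was 0.33 on the log2 scale and -0.03 over all genes tested. For 13 members each mouse of the second run was above each mouse of the first (2479 genes, 14.1%), and for 0 members the second run lay below (2016 genes, 11.5%). These 13 were Unc13a, Unc13b, Rims1, Rims2, Rims3, Syt7, Syt13, Syn3, Syngr1, Sv2a, Sv2b, Dnm1 and Synj1. Markers of cortical cells moved with the runs too. Slc17a7 was at 1060 to 1533 CPM in the first run and 2147 to 2918 CPM in the second. The summed level of the 10 glutamatergic markers was 3357 to 4019 and 5120 to 8123 CPM. For 6 markers of oligodendrocyte progenitors it was 203 to 243 and 281 to 511 CPM, with controls 9 and 11 at the top and the others up to 381 CPM. Each of these was without overlap between the runs. Of the 10 glutamatergic markers 6 were called higher and 3 lower in the second run, and of 12 general neuron markers 2 were called higher and 8 lower, with summed levels of 4686 to 6051 and 4831 to 5549 CPM. The part of the cell makeup in the run difference of the members was not tested. What differs between the runs, such as the animals, the dissection or the library preparation, cannot be told apart here.

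The 2 largest rises were in active zone genes. Unc13a was at 61.4 to 92.3 CPM in the first run (median 76.6) and at 197 to 300 CPM in the second (median 262), 3.36-fold higher. Its log2 difference was 1.75 ± 0.0738 (adjusted p = 5.5e-16, edgeR), and the 2 ranges lay far apart. Rims3 went from 82.1 to 114 CPM (median 90.8) to 210 to 342 CPM (median 273), 2.86-fold higher, again without overlap. Of the 12 active zone and priming genes 8 were higher and 2, Rab3a and the closely related Rab3c, lower in the second run.

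Rab3a had the largest fall, from 515 to 952 CPM in the first run (median 848) to 390 to 611 CPM in the second (median 498), a log2 difference of -0.67 ± 0.104 (adjusted p = 3.15e-06, edgeR). Syt5 followed, from 343 to 509 CPM (median 471) to 229 to 368 CPM (median 314), with -0.57 ± 0.0764. Cplx3 went from 19.6 to 39.7 CPM (median 27.4) to 15.1 to 34.5 CPM (median 18.4), with -0.51 ± 0.133. In each of these 3 the highest mice of the second run lay within the range of the first. The other 4 lower members were Syngr3, Snap47, Rab3c and Stx1a, by 0.19 to 0.48 on the log2 scale.

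**Figure D5:**
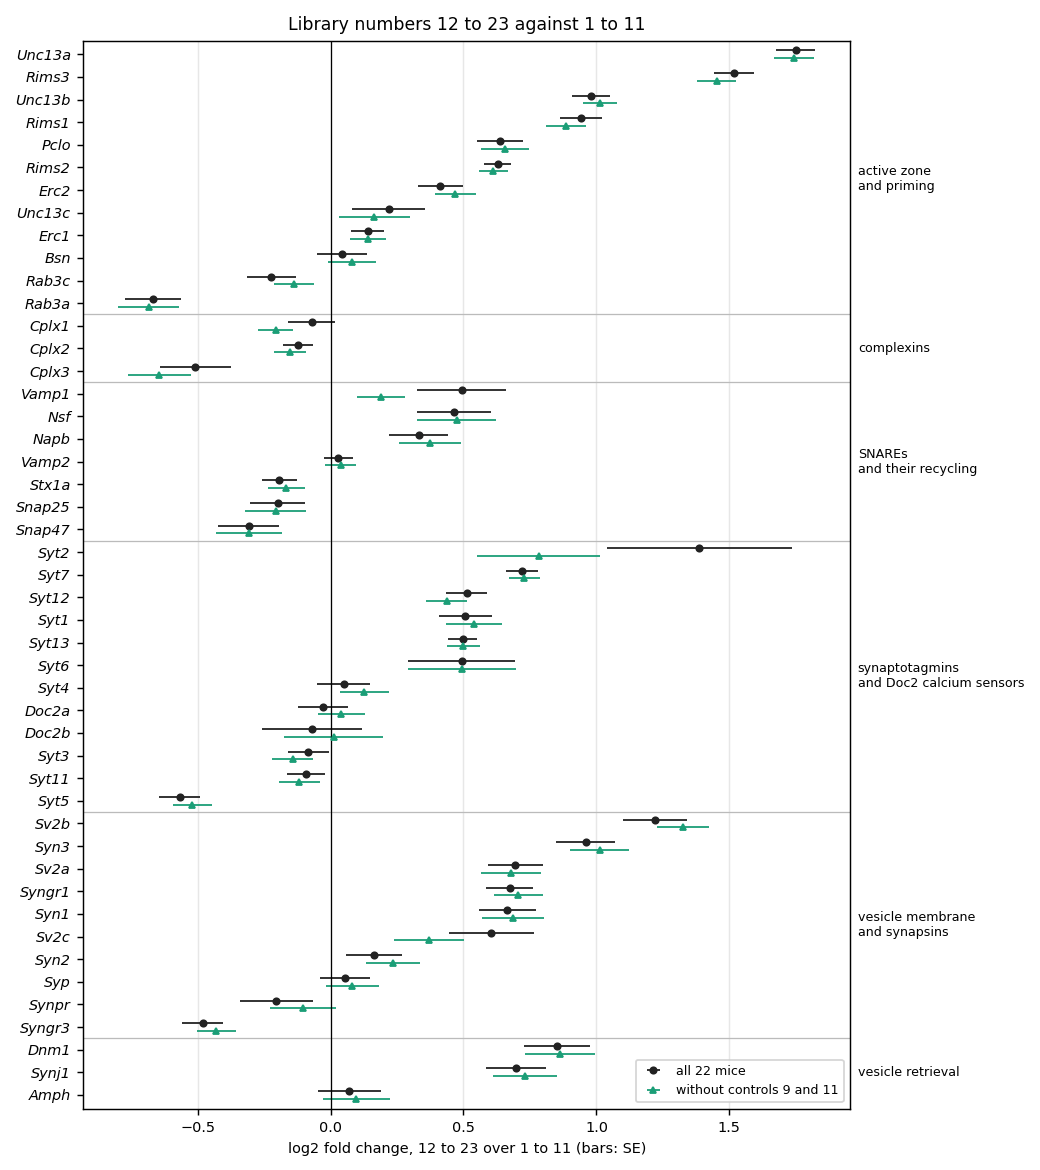
Log2 difference of each member between library numbers 12 to 23 and 1 to 11 (x axis, bars are SE), by role, over all 22 mice (black circles) and without controls 9 and 11 (green triangles). Unc13a (1.75), Rims3 (1.52) and Syt2 (1.39) lie furthest to the right and Rab3a (-0.67) furthest to the left, and the triangle of Syt2 moves to 0.78.

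Vamp1 and Syt2 were again the members that controls 9 and 11 moved most. Syt2 was at 2.94 to 9.53 CPM in the first run (median 6.17) and at 5.48 to 60.5 CPM in the second (median 10.8), with a log2 difference of 1.39 ± 0.347 over all mice and 0.78 without controls 9 and 11 (adjusted p = 0.00445). For Vamp1 the difference was 0.49 ± 0.167 (adjusted p = 0.0111) and 0.19 (adjusted p = 0.0699). The number of members called was 32 in both fits, but Vamp1, Erc1 and Rab3c were called only over all mice, and Cplx1, Cplx2 and Syn2 only without these 2. Among vesicle membrane genes 6 of 10 were higher and 1, Syngr3, lower in the second run, led by Sv2b at 284 to 469 CPM in the first run and 565 to 1276 CPM in the second. The 15 members that were not called over all mice had log2 differences of -0.20 to 0.22, and among them were Snap25 (-0.20), Vamp2 (0.03), Syp (0.06) and the scaffold gene Bsn (0.04).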

How the data were processed

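Bulk RNA from the ACC of 12 control and 10 stimulated mice was sequenced as single-end reads. After trimming (cutadapt 1.10) and alignment to mm10 (STAR 2.5.3a), the authors deposited whole-number counts of uniquely aligned reads per Ensembl gene, made with htseq-count 0.6.1p1. The strand setting is not given in the sources used here. The deposited table also holds, as a signal, the counts divided by the size factors of the authors' DESeq2 1.22.1 fit, used here only to check the factors (correlation of 0.9999913 with those recomputed), and the authors' own fold changes, p-values and adjusted p-values, which were not used. No other per-sample column was found (0). The authors' fit had RNA integrity and batch as covariates, which the labels do not give, so the run of library numbers stood in as an alternative. A batch named in a supplementary table was not used for this reason.

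Counts were tested with the quasi-likelihood test of edgeR 4.0.16 (R 4.3.3, TMM scaling, group as the only term, Benjamini-Hochberg adjustment over 17524 genes). limma 3.58.1 (voom with sample quality weights) and DESeq2 1.42.0 served as alternatives, as did other scalings, count minimums, the run, a replicate block, each run alone and leaving out mice. The code was tested on simulated counts with known changes. Those for the group fits held no difference between the runs, so they do not show how the group fit behaves with one. CPM used TMM library sizes, and RPKM divided them by the union of exons in GENCODE M21, in which 37772 of the 37786 gene identifiers were found (figures were drawn with Python 3.11.15). Total counts of 23090483 to 43668462 per mouse set the counting error, which is part of the spread between mice. No 2 libraries agreed within counting error (the smallest mean chi-square per gene over 231 pairs was 10.1). Mice are the replicates, grouped by their labels.

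Values by group are given for members below an unadjusted p of 0.05 in the fit by group or in that with the run, for the highest member of each role, for the 3 largest rises and falls between runs, and for the 3 smallest interaction p. Of the pathway genes outside the members, the 3 with the smallest p below 0.05 are named. Erc1, Cplx2, Sv2b, Bsn, Synj1, Amph, Syngr3 and other members beyond this rule were named after their values were seen. The members, gene lists and markers were chosen with earlier results of these data known. All 47 members passed the count minimum, and 19 share exonic bases with another annotated gene, at most 39.4% of their exonic length (Doc2a with Ino80e). For Syp this share was 16.8% and for Doc2b 5.53%.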

Additional observations from a re-analysis of the deposited data

Results flagged for a closer look

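Rab3c, a vesicle GTPase related to Rab3a, was at 170 CPM in stimulated mouse 9 and at 202.5 to 243 CPM in the other 9 stimulated mice. On the log2 scale, on which the 47 members were examined, the distance to its nearest neighbour took 0.489 of the range of the group, above the critical value of Dixon's test for 10 samples. On the CPM scale the share was 0.445, below that value, so the result depends on the scale. Syt2 in stimulated mouse 8 did the opposite, with a share of 0.648 on the CPM scale and a share not above the critical value on the log2 scale. Such a test picks out about 1 in 20 groups by chance. The 12 controls were not examined in this way, and among them Rab3c was lower still in control 9 (126 CPM) and control 11 (145 CPM).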

How the results depend on the processing

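With p adjusted over all genes, 0 members were called between the groups under each alternative run, and 0 for the interaction. The count of members below an unadjusted p of 0.05 (1 of 47, beside 632 of 17524 genes) became 2 with the DESeq2 Wald test (733 genes). It was 12 with limma voom and sample quality weights together (1857 genes, all 12 members higher). With the run of library numbers it was 6 (2015 genes), and in library numbers 12 to 23 alone 7 (2165 genes). Without controls 9 and 11 it was 0, with or without the run (1430 and 462 genes). With each mouse left out it was 0 to 3 (471 to 909 genes). It was 0 without controls 1, 3, 7, 9 or 11 or stimulated mice 5 or 7. The count with a lower level (7) became 4 with weighted voom, 11 with at least 10 counts in every mouse, 12 with the run, 16 in either run alone and 16 with the run and without controls 9 and 11, and 4 to 12 with each mouse left out. Other pathway genes below an unadjusted p of 0.05 (4) became 21 with weighted voom (1857 of all genes), 19 with the run (2015) and 25 in library numbers 12 to 23 (2165). They became 2 without controls 9 and 11 (462 of all genes) and 14 when the run was added to that (1430). With each mouse left out they were 1 to 7. Without a count minimum 2371 of 37571 genes were below it. The fit with the run and without controls 9 and 11 was chosen after seeing the data. The cause of these shifts was not tested.

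Of the 17 members recomputed under each alternative (those given by group under the naming rule), some log2 fold changes turned sign (turns among the other 30 members are not listed). In library numbers 1 to 11 these were Snap25 (-0.010), Vamp1 (0.12), Syt2 (0.40), Synpr (-0.33), Rims3 (-0.022), Cplx1 (0.065) and Cplx3 (0.059), and in 12 to 23 Rims3 (-0.19) and Unc13a (-0.10). Without controls 9 and 11 they were Syt2 (0.15) and Synpr (-0.058), and with the run added Syt2 (0.079), Synpr (-0.028), Rims3 (-0.050), Unc13a (-0.0080) and Cplx3 (0.085). With the run alone they were Rims3 (-0.10) and Unc13a (-0.0019), and Rims3 was at -0.0067 without a count minimum and -0.026 with the strict one. With each mouse left out, Rims3 ranged from -0.088 to 0.12, Snap25 from -0.011 to 0.079 and Synpr from -0.022 to 0.091. Over the named members, 538 values kept their direction and 40 turned. Without control 9 alone, Vamp1 was at -0.16 and Syt2 at -0.28.

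Replicate numbers are shared by the groups, but the labels tie them to no cage, day or litter. The correlation of deviations was over 0.1 in 8 of 10 pairs (-0.368 to 0.635), and 3 of 10 controls correlated best with their own number. As a replicate block, the numbers gave 8 members below an unadjusted p of 0.05 (1291 genes), 3 with a lower level, 13 other pathway genes and Syt2 at 0.0043. Block and run together gave 6 members below that p (1980 genes), 12 with a lower level and 21 other pathway genes, with Rims3 at -0.10.

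Members called between the runs, 32 and at the share of all genes, numbered 31 to 33 under the alternatives. Of the 10 highest members per length, 8 stayed with the longest transcript as length, 8 in library numbers 1 to 11 and 9 in 12 to 23. At 27 to 142 counts, Doc2b is the member most limited by depth.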
